A study of Mus musculus with 10 samples.

Results

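The aryl hydrocarbon receptor (AHR) and the proteins that hold, partner and repress it were followed as 7 transcripts in cultured adipocyte stem and precursor cells (ASPCs). The rows of the count table were taken by symbol: Ahr, Arnt, Arnt2, Ahrr, Ptges3, Hsp90aa1 and Hsp90ab1. These are 7 of 25229 rows, and all 7 were among the 14251 genes with enough counts to be tested. ASPCs were sorted as CD45-CD31-Pdgfra+ cells from perigonadal white adipose tissue (gWAT) of mice labelled WT, grown to confluence without passaging and lysed 6 hr after treatment. In one group 5 libraries came from cells that received 100 nM FICZ (6-formylindolo[3,2-b]carbazole, a tryptophan photoproduct that binds AHR), and in the other 5 from cells that received DMSO, the vehicle. Both groups carry the replicate numbers 1 to 5. The sources used here give no strain, sex or age for these mice, and do not say whether equal numbers mark cells from the same animals. Nor do they say that the 5 libraries of a group are separate cultures, so the p-values measure the spread between these libraries, which may be technical.

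AHR is a ligand-activated transcription factor of the bHLH-PAS family. Without ligand it is kept in the cytoplasm by a dimer of HSP90 (Hsp90aa1 encodes the inducible and Hsp90ab1 the constitutive cytosolic form) and the co-chaperone p23 (Ptges3). Once a ligand is bound, AHR moves into the nucleus, pairs with ARNT (Arnt, or its close relative Arnt2) and binds short DNA elements near genes such as Cyp1a1. One of the genes it switches on encodes the AHR repressor (Ahrr), which competes for ARNT and for the same elements and so forms a negative feedback loop.

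The core of the element that AHR and ARNT bind reads GCGTG, and the sequence around the transcription start is therefore shown for 3 members that hold this core. RefSeq promoter entries, 250 bases before to 50 bases after the start on GRCm38.p6, were found for 4 of the 7 members: Ahrr, Arnt, Arnt2 and Ptges3. They are written 5′ to 3′ on the strand of the gene, and capitals mark GCGTG or its reverse complement. The Ahrr sequence lies at chr13:74292282-74292581 on the minus strand, that of Arnt at chr3:95434140-95434439 on the plus strand and that of Ptges3 at chr10:128058732-128059031 on the plus strand.
Ahrr: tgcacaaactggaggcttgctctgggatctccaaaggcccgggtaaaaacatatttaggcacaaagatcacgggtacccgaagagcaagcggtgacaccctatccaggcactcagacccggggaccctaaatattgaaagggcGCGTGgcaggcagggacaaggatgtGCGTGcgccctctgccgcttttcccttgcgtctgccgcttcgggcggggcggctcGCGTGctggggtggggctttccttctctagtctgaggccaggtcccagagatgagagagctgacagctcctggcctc
Arnt: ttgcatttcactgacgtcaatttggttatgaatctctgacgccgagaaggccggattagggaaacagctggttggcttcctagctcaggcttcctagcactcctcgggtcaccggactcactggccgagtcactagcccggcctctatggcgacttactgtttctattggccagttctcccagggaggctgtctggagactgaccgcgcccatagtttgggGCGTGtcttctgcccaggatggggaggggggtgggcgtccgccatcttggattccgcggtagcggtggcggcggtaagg
Ptges3: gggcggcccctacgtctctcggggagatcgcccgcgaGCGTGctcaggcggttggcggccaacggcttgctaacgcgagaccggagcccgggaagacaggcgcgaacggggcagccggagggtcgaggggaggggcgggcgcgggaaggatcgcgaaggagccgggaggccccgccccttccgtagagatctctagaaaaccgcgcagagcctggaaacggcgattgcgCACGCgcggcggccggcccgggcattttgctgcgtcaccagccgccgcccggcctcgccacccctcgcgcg
The core occurred 3 times in the Ahrr window, with first bases at -107, -82 and -27 from the start, once in Arnt at -29, and at -213 and -21 in Ptges3. Arnt2 had 0 matches in its window at chr7:84409989-84410288 on the minus strand. Among 32817 promoter windows of 300 bases, 32.4% held at least 1 core on either strand and 3.91% held 3 or more. The longer form TNGCGTG, which overlaps the core, occurred once in Ahrr, at -29, and in 5.06% of all windows. A heat shock element written GAANNTTC was found in 0 of the 4 members and in 7.86% of all windows. A match is a run of letters, and no binding was measured here.

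On GRCm38, Ahr (ENSMUSG00000019256.17) lies at chr12:35497974-35535038 (minus), Ahrr (ENSMUSG00000021575.16) at chr13:74211118-74292331 (minus), Arnt (ENSMUSG00000015522.18) at chr3:95434388-95497240 (plus) and Arnt2 (ENSMUSG00000015709.9) at chr7:84246278-84410176 (minus). Ptges3 (ENSMUSG00000071072.12) lies at chr10:128058954-128077272 (plus), Hsp90aa1 (ENSMUSG00000021270.13) at chr12:110690605-110702728 (minus) and Hsp90ab1 (ENSMUSG00000023944.14) at chr17:45567775-45573271 (minus). The 7 genes are on 6 chromosomes, and Ahr and Hsp90aa1 share chromosome 12.

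Libraries held between 38328607 and 50210110 counts. All 8 ASPC marker genes were detected in every library, with a summed level of 10183 to 15292 CPM (counts of a gene relative to its library's TMM-scaled size). Transcripts of 10 hepatocyte marker genes were also detected in every library although the cells came from fat. Their sum ran from 1196 to 8018 CPM in DMSO with a median of 2950 CPM, and from 1162 to 1789 CPM in FICZ with a median of 1571 CPM. All 10 had negative fitted changes with FICZ, and DMSO replicate 5 stood apart at 5.10 times the median of the other libraries. The 8 macrophage markers were low, at 25.9 to 54.0 CPM in DMSO, the highest again in replicate 5, and 25.0 to 36.8 CPM in FICZ. The 6 endothelial markers summed to 65.1 to 87.9 CPM in DMSO and 70.4 to 84.9 CPM in FICZ, and 5 mature adipocyte markers to 6.03 to 21.1 and 4.16 to 21.9 CPM, with Lep at 0 in every library. Values without DMSO replicate 5 stand beside the results on Ahr, the HSP90 genes and the lists whose medians are given, and the part of these transcripts in the results was not tested. In bulk cultures, fewer cells expressing a gene and less RNA per cell cannot be told apart.

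Under vehicle, the chaperones were far more abundant than the receptor. Per kb of exons, Hsp90ab1 averaged 785 ± 156 CPM (SD, n = 5), Hsp90aa1 156 ± 36.5 CPM and Ptges3 73.5 ± 3.99 CPM. Arnt, the nuclear partner, followed at 10.7 ± 1.03 CPM per kb, then Arnt2 at 2.33 ± 0.117, Ahr at 2.32 ± 0.316 and Ahrr at 1.07 ± 0.234. The ranges of Arnt2 and Ahr overlapped, so their order is not set by these data. Every other pair of neighbours in this order had ranges apart in DMSO. Within libraries Hsp90ab1 was 5.07 ± 0.256 times Hsp90aa1, Arnt was 4.63 ± 0.575 times Arnt2, and Ahr was 2.22 ± 0.370 times Ahrr. Among genes with a measured exon length, percentiles were taken of the mean per-kb level over all libraries, those with FICZ included. They were 99.9 for Hsp90ab1, 67.5 for Arnt, 30.3 for Ahr and 31.7 for Ahrr. The levels of Ahrr with FICZ raise its percentile, which is not its place under vehicle. Among related genes named for comparison, Hsp90b1, the HSP90 of the endoplasmic reticulum, averaged 487 CPM per kb in DMSO. Hif1a and Epas1, hypoxia-inducible bHLH-PAS factors that also pair with ARNT, averaged 37.5 and 32.7 CPM per kb, above Ahr in every DMSO library.

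**Figure D1:**
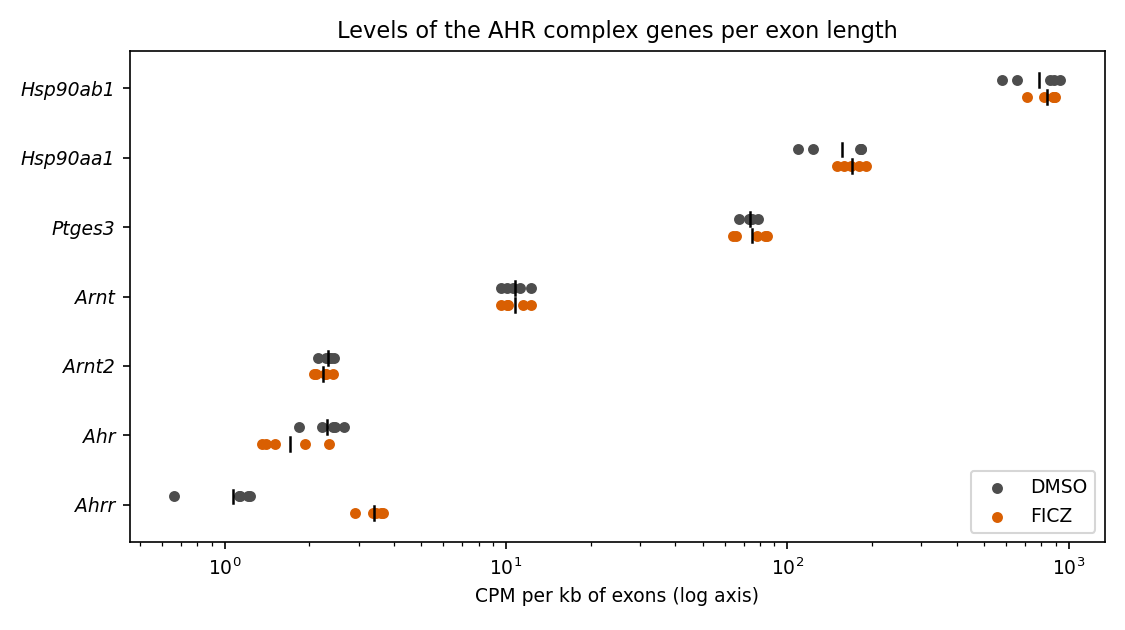
Level of each member per kb of exons in CPM, on a log axis, with 1 point per library and a black mark at the group mean (5 DMSO and 5 FICZ libraries). The chaperones Hsp90ab1, Hsp90aa1 and Ptges3 lie above Arnt, and Ahrr moves from the lowest place in DMSO (mean 1.07 CPM per kb) to a mean above Ahr and Arnt2 in FICZ (3.40 CPM per kb).

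Ahrr was the one member to pass the adjusted threshold, and it rose with FICZ. Its level was 11.4, 11.6, 10.7, 6.24 and 10.6 CPM in DMSO replicates 1 to 5, and 31.7, 34.1, 32.5, 27.4 and 34.6 CPM in FICZ replicates 1 to 5. The groups lay far apart, and within both groups replicate 4 was the lowest library. The mean went from 10.1 ± 2.21 to 32.1 ± 2.87 CPM, a fitted 3.17-fold rise with a 95% interval of 2.50 to 4.01. By edgeR's quasi-likelihood test the log2 fold change was 1.66 ± 0.16 (SE) with an adjusted p of 0.00324, and 1.69 ± 0.11 once the replicate number was a block. Without the block Ahrr had the smallest p of all genes tested, and with it Cyp1a1 had a smaller one. With this test 0.0211% of all genes passed the threshold of an adjusted p of 0.05, namely Cyp1a1, Ahrr and Tiparp, and 0.0561% passed with the block, Ahrr included. An exact permutation test (two-sided) of its log2 CPM gave p = 0.00794, the smallest that 5 against 5 libraries can give. The pair differences in log2 CPM were 1.47, 1.55, 1.60, 2.12 and 1.70 for replicates 1 to 5. The largest was in the pair with the lowest DMSO level, and a low DMSO level enlarges the difference by construction. Groups without overlap, higher with FICZ, were seen in 0.351% of all genes, and a rise in all 5 pairs in 4.32%.

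The fitted change of Ahr was downward but did not pass the test. Its level was 15.2, 13.6, 15.0, 11.3 and 16.4 CPM in DMSO replicates 1 to 5, and 8.64, 11.9, 14.4, 8.36 and 9.29 CPM in FICZ replicates 1 to 5. FICZ replicates 2 and 3 lay above the lowest DMSO library, replicate 4, so the groups overlapped. Each FICZ library was nonetheless lower than the DMSO library of its number, by log2 differences of -0.81, -0.20, -0.06, -0.43 and -0.82. A fall in all 5 pairs was seen in 2.81% of all genes. The mean went from 14.3 ± 1.95 to 10.5 ± 2.59 CPM, and the log2 fold change was -0.44 ± 0.16 (edgeR, adjusted p = 0.999 over all genes). With the replicate block it was -0.46 ± 0.14 (edgeR, adjusted p = 0.929). Without the block the percent change was -26.5, with a 95% interval, not adjusted for the number of genes, of -42.7 to -5.74. The permutation test of Ahr alone, which does not use the replicate numbers as pairs, gave an exact p of 0.0476. Leaving out 1 library moved this exact p to between 0.0238 and 0.0873, at or under 0.05 in 3 of 10 cases. The log2 fold change was -0.39 without DMSO replicate 5. Of the 6163 exonic bases of Ahr, 127 are shared with Gm48236, a lincRNA on the opposite strand, and whether the counting used strand is not given in the sources used here.

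**Figure D2:**
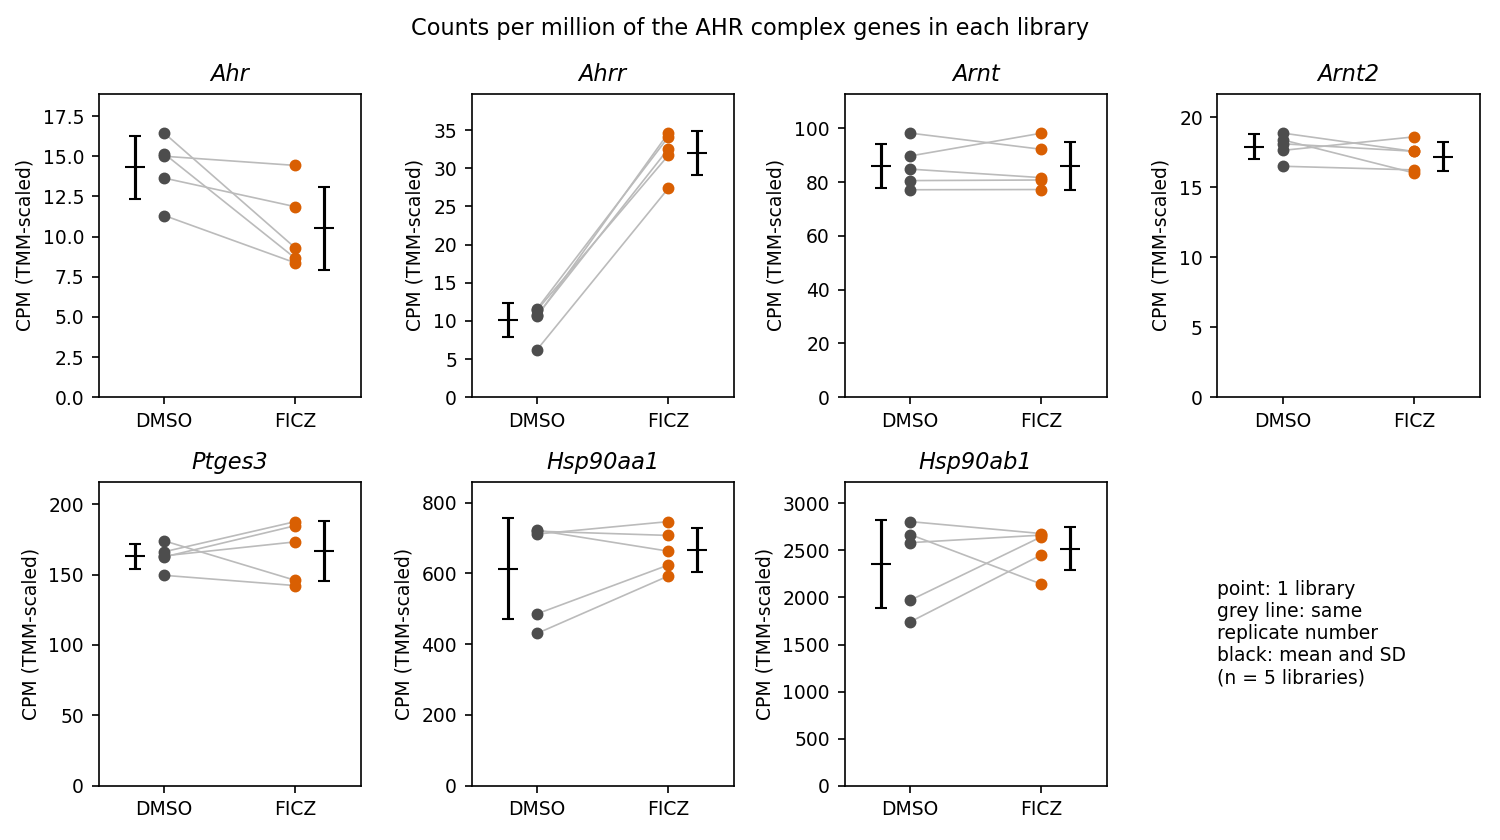
CPM of each member in every library, with the axis starting at 0, grey lines joining libraries of the same replicate number and black bars at the group mean with SD (n = 5). All 5 lines rise for Ahrr and all 5 fall for Ahr, by 0.06 to 0.82 on the log2 scale, while the lines of the other members run both ways.

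Because a library has its own scale, the repressor was also read against the receptor within each library. The per-kb ratio of Ahrr to Ahr was 0.492, 0.555, 0.467, 0.360 and 0.421 in DMSO replicates 1 to 5 and 2.39, 1.88, 1.47, 2.14 and 2.43 in FICZ replicates 1 to 5. Every DMSO library thus held fewer Ahrr than Ahr reads per kb, and every FICZ library held more. The mean ratio went from 0.459 ± 0.0733 to 2.06 ± 0.398. On the log2 scale the group means of the ratio differed by 2.16, which is 4.46-fold. The exact permutation p was 0.00794, or 0.0317 adjusted over the 4 ratios compared. It was higher in 5 of 5 pairs. This ratio contains the rise of Ahrr and is not independent of it. The ratio of Arnt to Ahr, partner to receptor, was 4.74 ± 1.13 in DMSO and 6.62 ± 1.80 in FICZ, higher in 5 of 5 pairs, with an exact permutation p of 0.0714 (0.143 adjusted). Leaving out each library, this exact permutation p before adjustment ran from 0.0317 to 0.159. In 8 of 10 cases it was 0.0714 or higher. The lower values were 0.0397 without DMSO replicate 4 and 0.0317 without FICZ replicate 3. The ratio of Arnt to Ahr contains the Ahr levels, which were lower in 5 of 5 pairs, and is not independent of them.

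**Figure D3:**
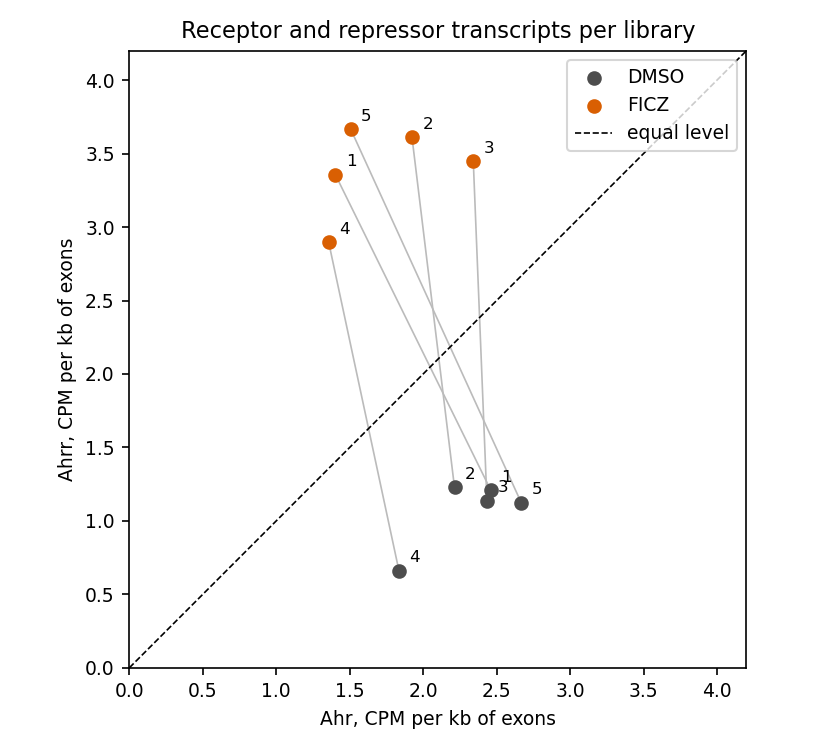
Ahrr against Ahr in CPM per kb of exons, 1 numbered point per library, with grey lines joining the DMSO and FICZ libraries of the same number and a dashed line where both levels are equal. The 5 DMSO libraries lie below the line (ratios 0.360 to 0.555) and the 5 FICZ libraries above it (ratios 1.47 to 2.43).

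The ARNT partners did not pass the test in either direction. Arnt was at 77.1, 84.8, 80.5, 98.2 and 89.7 CPM in DMSO replicates 1 to 5 and at 77.2, 81.6, 80.8, 92.2 and 98.1 CPM in FICZ replicates 1 to 5. Libraries of replicates 4 and 5 were the highest in both groups, and the group ranges nearly coincided. The means were 86.1 ± 8.25 and 86.0 ± 8.80 CPM, with a 95% interval for the change of -13.1% to 14.9% (edgeR, adjusted p = 0.999). Arnt2, which is best known from neurons, was at 16.5 to 18.9 CPM in DMSO and 16.0 to 18.6 CPM in FICZ. Its means were 17.9 ± 0.900 and 17.2 ± 1.07 CPM, with an interval of -14.6% to 8.13% (edgeR, adjusted p = 0.999). The per-kb ratio of Arnt2 to Arnt was 0.219 ± 0.0272 in DMSO and 0.210 ± 0.0255 in FICZ (exact permutation p = 0.643). These intervals are not adjusted for the number of genes. Arnt2 shares 214 exonic bases with the antisense gene Gm30873, and 2.30% of its 50-base words also occur in transcripts of other genes.

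The chaperone genes were not called either. Ptges3 averaged 163 ± 8.85 CPM in DMSO and 167 ± 21.4 CPM in FICZ, where replicates 4 and 5 were lowest, at 142 and 146 CPM. The 95% interval of its change was -11.4% to 17.9%. Hsp90aa1 was at 719, 711, 722, 486 and 430 CPM in DMSO replicates 1 to 5 and at 707, 746, 663, 624 and 593 CPM in FICZ replicates 1 to 5. DMSO replicates 4 and 5 were the lowest libraries, and the others of both groups lay between 593 and 746 CPM. Hsp90ab1 had the same low pair, at 1969.7 and 1740.1 CPM, against 2143 to 2806 CPM elsewhere. The means were 614 ± 143 and 666 ± 61.9 CPM for Hsp90aa1 and 2353 ± 469 and 2516 ± 228 CPM for Hsp90ab1. Their 95% intervals ran from -13.9% to 37.0% and from -13.3% to 31.8%. With the level of Alb, a hepatocyte gene, as a covariate both log2 fold changes turned from 0.12 and 0.10 to -0.027 and -0.035. Alb is 1 of the 10 hepatocyte markers, all with lower fitted levels in FICZ, so this fit cannot fully separate Alb from treatment. Without DMSO replicate 4 they were 0.046 and 0.039, and without DMSO replicate 5 they were 0.015 and 0.0053.

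Over the 10 libraries the log2 CPM of both HSP90 genes correlated with a Pearson r of 0.898 (permutation p = 0.00232, or 0.0487 adjusted over the 21 pairs of members) and a Spearman rho of 0.782 (permutation p = 0.0109, or 0.157 adjusted). Without the 2 libraries farthest from the median, DMSO replicates 4 and 5, r was 0.446, so the relation rested on them. The per-kb ratio of Hsp90aa1 to Hsp90ab1 was 0.198 ± 0.0101 in DMSO and 0.203 ± 0.0228 in FICZ (exact permutation p = 0.706). Much of Hsp90aa1 is not unique: 47.5% of its 50-base words occur in transcripts of other genes, mainly the pseudogenes Gm12346 and Gm5844, and the value is 19.6% for Ptges3, mainly through Ptges3-ps, but 3.44% for Hsp90ab1. How reads with several alignments were counted is not given in the sources used here, so the levels of Hsp90aa1 and Ptges3 are uncertain.

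**Figure D4:**
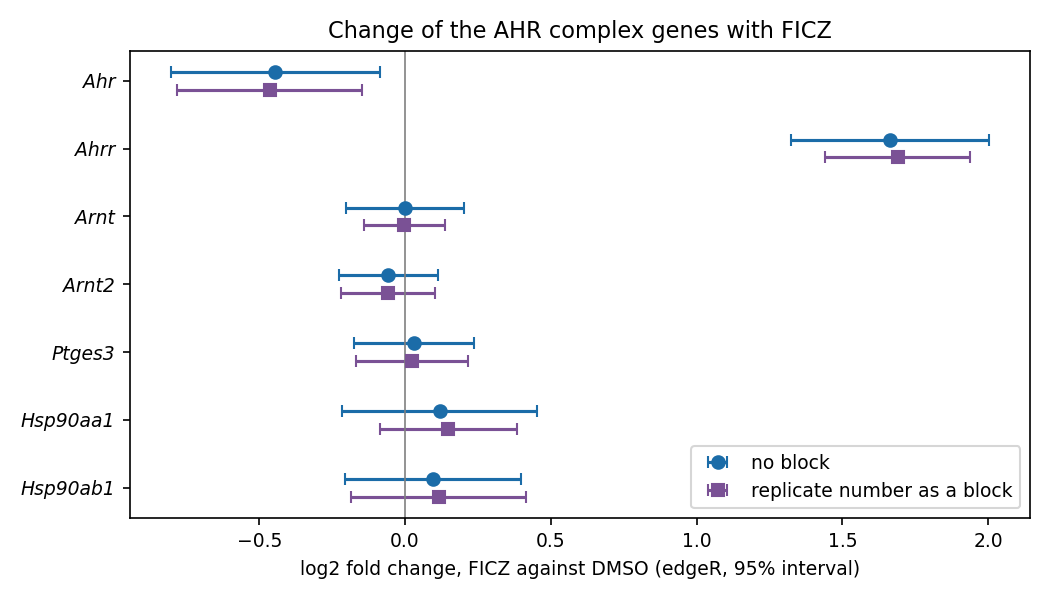
Log2 fold change of each member, FICZ against DMSO, by edgeR without (circles) and with (squares) the replicate number as a block, with 95% intervals that are not adjusted for the number of genes. The interval of Ahrr lies above 0, that of Ahr below 0 with an adjusted p of 0.999 (0.929 with the block), and those of the other 5 members include 0.

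The remaining HSP90 paralogs and co-chaperones give the chaperone machinery as a whole. Of 17 listed genes 0 were called by edgeR or DESeq2 and 0 had an unadjusted edgeR p at or under 0.05, which 4.82% of all genes had, but all 17 had a positive log2 fold change, with a median of 0.085 (all genes 0.011, with 53.8% positive). Aipl1, a co-chaperone best known from photoreceptors, was highest at 0.31 ± 0.27 and Stub1, a ubiquitin ligase that works with HSP90, lowest at 0.02 ± 0.093. Hsp90b1 was at 0.17 ± 0.14. The count of positive changes was sensitive to DMSO replicate 5. For this list only DMSO replicates 4 and 5 were left out in turn, so the weight of the other libraries was not tested. In the pairs of replicates 1 to 5, 11, 9, 3, 13 and 16 of the 17 were higher with FICZ. Without DMSO replicate 5, 6 of 17 were positive, with a median of -0.0086, and with Alb as a covariate 6 of 17, with a median of -0.038. Without DMSO replicate 4 the count was 16 of 17. Per kb, Hsp90b1 stood at 334 CPM in DMSO replicate 5 and at 482 to 562 CPM in the other DMSO libraries. DMSO replicate 5 is the library in which the hepatocyte markers were highest.

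**Figure D5:**
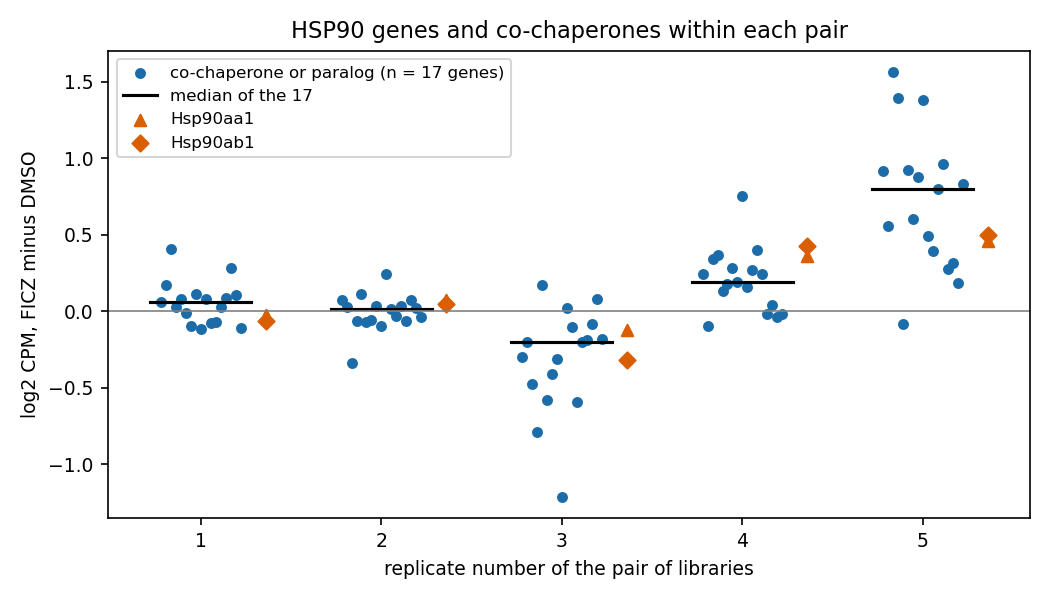
Difference in log2 CPM, FICZ minus DMSO, within each pair of same-numbered libraries, for the 17 HSP90 paralogs and co-chaperones (points, with their median as a bar) and for Hsp90aa1 and Hsp90ab1. The genes lie mostly above 0 in pair 5 (16 of 17 higher) and mostly below it in pair 3 (3 of 17 higher).

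Heat shock genes, which HSF1 drives under protein stress, included 15 tested genes, of which 0 were called by edgeR or DESeq2, 1 had an unadjusted edgeR p at or under 0.05 against 4.82% of all genes, and 10 had a positive change (median 0.047). Without DMSO replicate 5 the count was 9 and the median 0.0048, and without DMSO replicate 4 it was 9 with a median of 0.020. Hspa4l, an HSP110-family chaperone, was highest, averaging 23.6 ± 2.82 CPM with DMSO and 30.8 ± 2.84 CPM with FICZ. Its log2 fold change was 0.38 ± 0.10 (edgeR, adjusted p = 0.999), and it was higher in 5 of 5 pairs. Hspa1b, an inducible HSP70, was lowest at -0.20 ± 0.14. Among the other bHLH-PAS genes, the family of AHR and ARNT, 15 of the 18 in the table were tested. Sim1, Sim2 and Npas1 were not tested, with at most 7 counts in any library. By edgeR or DESeq2 0 of the 15 were called, 0 had an unadjusted edgeR p at or under 0.05, 6 were positive, and the median was -0.0099. Without DMSO replicate 5, 9 of the 15 were positive with a median of 0.035, and without DMSO replicate 4, 8 of 15 with a median of 0.0088. Npas4, an activity-dependent factor, was highest at 0.16 ± 0.74 and Per3, a clock gene, lowest at -0.17 ± 0.25. Hif1a was at -0.07 ± 0.14 and Epas1 at -0.14 ± 0.14, the latter lower with FICZ in 5 of 5 pairs. Of 14 AHR cofactors and nuclear partners 0 were called by edgeR or DESeq2, 0 had an unadjusted edgeR p at or under 0.05 and 7 were positive (median 0.0059; -0.020 without DMSO replicate 5, -0.022 without DMSO replicate 4), between Esr1, the oestrogen receptor, at -0.19 ± 0.15 and Med1, a Mediator subunit, at 0.12 ± 0.091.

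The 8 genes of AHR transport and turnover include Tiparp, an ADP-ribosyltransferase that is an AHR target and acts back on the receptor. Tiparp rose from 44.6 ± 3.96 to 83.9 ± 14.5 CPM, with a log2 fold change of 0.91 ± 0.12 (edgeR, adjusted p = 0.0335), and missed the threshold with the replicate block (adjusted p = 0.0509). The other 7, among them the importin Kpnb1 and the ubiquitin ligase part Cul4b, were not called, and Ube2l3, a ubiquitin-conjugating enzyme, was lowest at -0.05 ± 0.11. Of 14 listed AHR target genes 13 were tested, 9 were positive (53.8% of all genes) and the median was 0.54. By edgeR 2 were called (0.0211% of all genes), and 9 had an unadjusted p at or under 0.05 in either direction (4.82% of all genes). The list was chosen with earlier results of these data known, so these shares are a description only. DESeq2 called 4 of the list and 16 of all genes, and with the block 5 and 26. Without DMSO replicate 5, 11 of 13 were positive with a median of 0.35 and 3 edgeR calls in place of 2. Without DMSO replicate 4, 9 of 13 were positive with a median of 0.42 and 1 edgeR call. Scin was not tested, with at most 11 counts in any library. Cyp1a1, which oxidises AHR ligands, FICZ among them, rose from 26.8 ± 12.8 to 255 ± 92.4 CPM (log2 fold change 3.25 ± 0.38, edgeR, adjusted p = 0.0189). With the block, edgeR called Cyp1a1, Nqo1, a quinone reductase, and Serpinb2, a protease inhibitor, and not Tiparp. Cyp1b1, a further AHR target of the same family, went from 980 ± 134 to 1508 ± 69.6 CPM, higher in 5 of 5 pairs (log2 fold change 0.62 ± 0.10, edgeR, adjusted p = 0.147), and passed with DESeq2 (adjusted p = 3.33e-05). Cyp1a2, a mainly hepatic enzyme, was lowest at -1.11 ± 0.43 (edgeR, adjusted p = 0.999). The repressor Ahrr was thus called together with Cyp1a1 and Tiparp without the block, and with Cyp1a1 in both fits. Leaving out DMSO replicate 1 or 2 or FICZ replicate 1, 2 or 3 left 1 gene called by edgeR, Ahrr, so the calls of Cyp1a1 and Tiparp were lost there. That of Tiparp was also lost without DMSO replicate 4. In 3 further edgeR fits 2 genes were called, Ahrr among them, so Cyp1a1 and Tiparp were not both called. These were without DMSO replicate 3, with a filter of 1 CPM in 5 libraries and with no filter beyond 1 count. With Alb as a covariate 0 of the 13 target genes were called, while 11 of 13 were positive with a median of 0.43.

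Genes whose levels ran most like those of Ahrr and Ahr over the 10 libraries were sought among 10726 genes with a mean of at least 5 CPM, as a description. For Ahrr these were Cyp1a1 (Pearson r 0.967), Cpox (0.943), an enzyme of haem synthesis, and Usp33 (0.924), a deubiquitinase. Cpox went from 55.8 ± 5.27 to 76.3 ± 7.78 CPM, with a log2 fold change of 0.45 ± 0.093 (edgeR, adjusted p = 0.636). For Ahr they were Slc16a10 (0.896), a transporter of aromatic amino acids, Ptprd (0.887), a receptor phosphatase, and Abca3 (0.880), a lipid transporter. Slc16a10 was at 14.9 ± 1.79 CPM in DMSO and 12.2 ± 2.32 CPM in FICZ (log2 fold change -0.29 ± 0.14, edgeR, adjusted p = 0.999). The points share their library, its depth and any difference between groups, which was called for Ahrr and not for Ahr.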

How the data were processed

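RNA of cultured ASPCs was sequenced in bulk in 10 libraries, 5 treated with DMSO and 5 with FICZ. The authors aligned reads with STAR 2.7.7 to mm10 and deposited raw counts per gene symbol, which hold no normalization. The counting program, annotation, strand and multimapping settings are not given in the sources used here. The table lists 25229 rows, of which 8 rows of repeated symbols were left out.

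Counts were tested with edgeR 4.0.16 in R 4.3.3 (quasi-likelihood, TMM, robust dispersions, filter by expression, 14251 genes), with Benjamini-Hochberg adjustment over all of them and a threshold of 0.05. Standard errors were derived from the F statistic. CPM was TMM-scaled, with a prior count of 2 on the log2 scale. Levels per kb used exon lengths of the GENCODE annotation of GRCm38. Exact permutation tests were two-sided over 252 arrangements and did not use the replicate numbers as pairs. Library totals were 38328607 to 50210110 counts, and SDs cover the spread between libraries.

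The labels give both groups replicate numbers 1 to 5. Deviations from group means correlated between same-numbered libraries at 0.269, 0.275, 0.154, 0.317 and 0.244 across genes, against a mean of -0.0599 between other libraries, so the numbers were taken to pair the libraries, from the data and not from a stated design. Fits with the replicate number as a block were run beside the others.

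Alternatives were other normalizations, filters and prior counts, DESeq2 1.42.0, limma-voom (limma 3.58.1), Alb as a covariate and leaving out each library. The members, the pathway and marker lists and the rule for named genes (members, called genes and extremes of each list, points of comparison, and the 3 genes most correlated with Ahr and Ahrr) were chosen with earlier results of these data known. List counts without DMSO replicates 4 or 5, with the block or with Alb were added after seeing the data. The scripts were tested on simulated data. A gene among the points of comparison is not reported here.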

Additional observations from a re-analysis of the deposited data

Results flagged for a closer look

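Ahrr in DMSO replicate 4, at 6.24 CPM against 10.6 to 11.6 CPM in the other DMSO libraries, lay far below its group. The gap to the nearest library was 0.857 of the group's range in log2 CPM, above Dixon's 95% critical value of 0.71 for 5 samples. It was the one such library among 22 groups of 5 values examined, where chance gives about 1.1. The log2 CPM difference of Ahrr between FICZ and DMSO was 1.69 with this library and 1.52 without it.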

How the results depend on the processing

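Ahrr passed the adjusted threshold in every alternative fit run. Its log2 fold change was 1.64 to 1.69 over 12 other settings and 1.53 to 1.72 (adjusted p 0.000124 to 0.0227) leaving out each library, and the ratio of Ahrr to Ahr stayed at log2 2.07 to 2.27. Ahr passed in none of the 22, with adjusted p from 0.474 (DESeq2 with the block) to 1.00 and log2 fold changes of -0.58 to -0.37. Its permutation difference ran from -0.59 to -0.39 leaving out each library and missed 0.05 in 7 of 10. The number of genes called, 3, became 8 with the replicate block in edgeR, 16 with DESeq2, 26 with DESeq2 and the block and 7 with limma-voom and the block, and was 1 to 4 leaving out each library. It was 1 without DMSO replicate 1 or 2 or without FICZ replicate 1, 2 or 3, and the cause was not tested. The block changed the call of no member.

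Small fitted changes turned sign. With Alb as a covariate Arnt was at 0.016, Hsp90aa1 at -0.027 and Hsp90ab1 at -0.035. Leaving out each library, the log2 fold change of Arnt ran from -0.068 to 0.050 and that of Ptges3 from -0.013 to 0.085, the log2 CPM difference of Arnt from -0.051 to 0.047 and of Ptges3 from -0.021 to 0.079, the log2 ratio of Arnt2 to Arnt from -0.10 to 0.013 and of Hsp90aa1 to Hsp90ab1 from -0.023 to 0.075. Of 282 alternatives over the 18 differences and ratios, 253 kept direction and side of the threshold. The causes were not tested. The log2 ratio of Arnt to Ahr kept its sign, at 0.36 to 0.61 leaving out each library. The Cyp1b1 change of 0.62 on the log2 scale was not called by edgeR. DESeq2 called it from the same 5 libraries a group (adjusted p = 3.33e-05).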
